A study of Mus musculus with 6 samples.

Results

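The genes described here are 10 genes of the brain vasculature, whose RNA was measured by sequencing of mouse hippocampus. They are 8 genes of endothelial cells (*Cd34*, *Pecam1*, *Cldn5*, *Flt1*, *Kdr*, *Tek*, *Slco1a4* and *Abcb1a*) and 2 genes of pericytes (*Pdgfrb* and *Rgs5*), out of 25239 genes listed in the counts. They were chosen as known genes of these cell types with the difference between the genotypes in view, *Cd34* being among the clearest falls of the series. The difference between the genotypes in these 10 genes is therefore given as a description, without a test. The filter on low counts kept 14445 genes for testing, and all 10 genes were among them. The groups were 3 mice with both parental copies of *Ube3a* intact (Ube3a m+/p+, or WT) and 3 of the genotype Ube3a m-/p+, all males of the C57BL/6 strain and 6 to 8 weeks old, with 1 library of hippocampus per mouse and no treatment named in the labels. Ube3a m-/p+ mice lack a functional copy of *Ube3a* on the maternal chromosome, keep the paternal copy, and serve as a model of Angelman syndrome (AS). The sources used here name no promoter or cell type that would limit the loss of the maternal copy to neurons, and do not give the part of the gene that is changed.

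Brain capillaries are tubes of endothelial cells joined by tight junctions, which, with transporters in their membranes, form the blood-brain barrier. Vascular endothelial growth factor (VEGF) and angiopoietins act on receptors of the endothelial cell and govern growth and stability of vessels. Pericytes lie on the outer wall of the capillary within a shared basement membrane, and are recruited by platelet-derived growth factor from the endothelium. Vessels are a small fraction of the tissue, and in bulk RNA of hippocampus fewer cells of a type and less RNA per cell cannot be told apart.

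The 5' flanking sequences of 3 of these genes are shown because their values frame the range seen below, *Cd34* and *Rgs5* at its lower end and *Cldn5* at its upper end. RefSeq sequence (GRCm38.p6) was matched to 8 of the 10 genes by symbol. Of these, the window of *Abcb1a*, chr5:8566841-8567080, lies far upstream of the start given for that gene below, 8660077. Each sequence shown covers 240 bases, from 250 to 11 bases before the start of the gene in RefSeq. It is given 5' to 3' on the strand of the gene, which is the + strand in each case. The windows are chr1:194938571-194938810 for *Cd34*, chr1:169655251-169655490 for *Rgs5* and chr16:18776597-18776836 for *Cldn5*. Capitals mark GGAA and its complement TTCC, the core of the motif bound by ETS factors, a family that includes regulators of endothelial genes.
Cd34: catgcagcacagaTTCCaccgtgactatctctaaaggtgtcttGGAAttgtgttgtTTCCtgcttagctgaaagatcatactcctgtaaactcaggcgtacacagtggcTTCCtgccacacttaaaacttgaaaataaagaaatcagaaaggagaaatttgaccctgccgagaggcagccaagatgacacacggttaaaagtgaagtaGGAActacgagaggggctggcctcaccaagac
Rgs5: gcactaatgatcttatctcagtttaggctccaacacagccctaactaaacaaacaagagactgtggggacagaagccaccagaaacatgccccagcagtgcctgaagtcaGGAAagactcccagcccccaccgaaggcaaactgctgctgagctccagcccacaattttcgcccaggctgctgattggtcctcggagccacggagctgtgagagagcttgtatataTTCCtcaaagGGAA
Cldn5: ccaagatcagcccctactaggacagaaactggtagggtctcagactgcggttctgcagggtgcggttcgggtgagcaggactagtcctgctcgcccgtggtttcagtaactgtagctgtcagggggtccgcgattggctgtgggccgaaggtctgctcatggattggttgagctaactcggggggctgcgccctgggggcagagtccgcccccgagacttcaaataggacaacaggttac
On both strands together, the core was found 5 times in the window of *Cd34*, 3 times in that of *Rgs5* and 0 times in that of *Cldn5*. It was found in 7 of the 8 windows, and in 92.7% of 32851 windows of the same length over all genes, with a median of 3 per window, so that its presence does not set these genes apart. The letters AGGTCA, a form of the half-site of retinoid response elements, were searched on both strands because the study concerns retinoic acid signalling. They were in 0 of the 8 windows and in 13.5% of all windows. Complete elements and other forms of the half-site were not searched, so this does not show that the genes lack retinoid response elements. The GC content of the window was 45.8% for *Cd34*, 52.5% for *Rgs5* and 60.0% for *Cldn5*, with a median of 52.1% over all windows.

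A library held 7293272 to 8675252 gene counts in the WT group and 8871052 to 11314409 in the Ube3a m-/p+ group. Expression is given as CPM, the counts of a gene scaled to a common total of gene counts per library. Values per mouse are listed in the order of mice 1, 2 and 3. *Ube3a* was measured at 104, 141 and 151 CPM in the WT mice, against 96.8, 82.9 and 80.6 CPM in the Ube3a m-/p+ mice. It was lower in every Ube3a m-/p+ mouse than in every WT mouse, but the mice numbered 1 were close, with 104 and 96.8 CPM. The log2 fold change of *Ube3a* was -0.58 ± 0.12 (standard error), with adjusted p = 0.0363 by edgeR's quasi-likelihood test. With the GC and length correction introduced below, it was -0.20 ± 0.08 (standard error) and no longer met the threshold. The uncorrected difference did not meet it either when WT mouse 2, WT mouse 3, Ube3a m-/p+ mouse 2 or Ube3a m-/p+ mouse 3 was left out. The longest transcript of *Ube3a* has a GC content of 36.9%, and the median log2 fold change of all tested genes below 40% was -0.32. Genes such as *Snhg14* overlap *Ube3a* on the opposite strand, and reads of both strands cannot be told apart, since no strand setting is given. The libraries also differed in how counts depended on the GC content of the transcript. Spearman's rho across genes, which are not replicates, was taken between GC content and how far a library lay from the average library. It was 0.0455, -0.506 and -0.571 in the WT mice and 0.0589, 0.526 and 0.528 in the Ube3a m-/p+ mice, so that the mice numbered 1 stood apart from the rest of their genotype. Results are therefore also given below with every library corrected for the GC content and length of transcripts.

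Of the 10 genes, 7 had a negative log2 fold change of Ube3a m-/p+ against WT mice, as did 49.7% of all genes tested. Their median log2 fold change was -0.22, with a range from -0.57 for *Cd34* to 0.46 for *Cldn5*, and the median of all genes was 0.003. A gene was called at an adjusted p below 0.05 (edgeR quasi-likelihood test, Benjamini-Hochberg) and a fold change above 1.2. This held for 2.01% of all genes tested, 0.990% lower and 1.02% higher, and for 2 of the 10 genes, *Cd34* and *Rgs5*, both lower. An unadjusted p below 0.05 was reached by 4 of the 10 genes in the lower direction, against 12.4% of all genes, and by 1 in the higher direction, against 12.2%. For 6 of the 10 genes every Ube3a m-/p+ mouse was below every WT mouse, and for 0 every one was above. Groups did not overlap in 25.0% of all genes tested, with 14.2% lower. *Cd34* and *Rgs5* were not called when WT mouse 2, WT mouse 3, Ube3a m-/p+ mouse 2 or Ube3a m-/p+ mouse 3 was left out, in which case edgeR called at most 2 of all the genes tested, so that the calls of other genes named below rest on these mice as well. These counts describe genes chosen with the contrast in view, and no significance is attached to them. The 10 genes did not share a direction, as is visible in the plot of values by mouse.

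**Figure D1:**
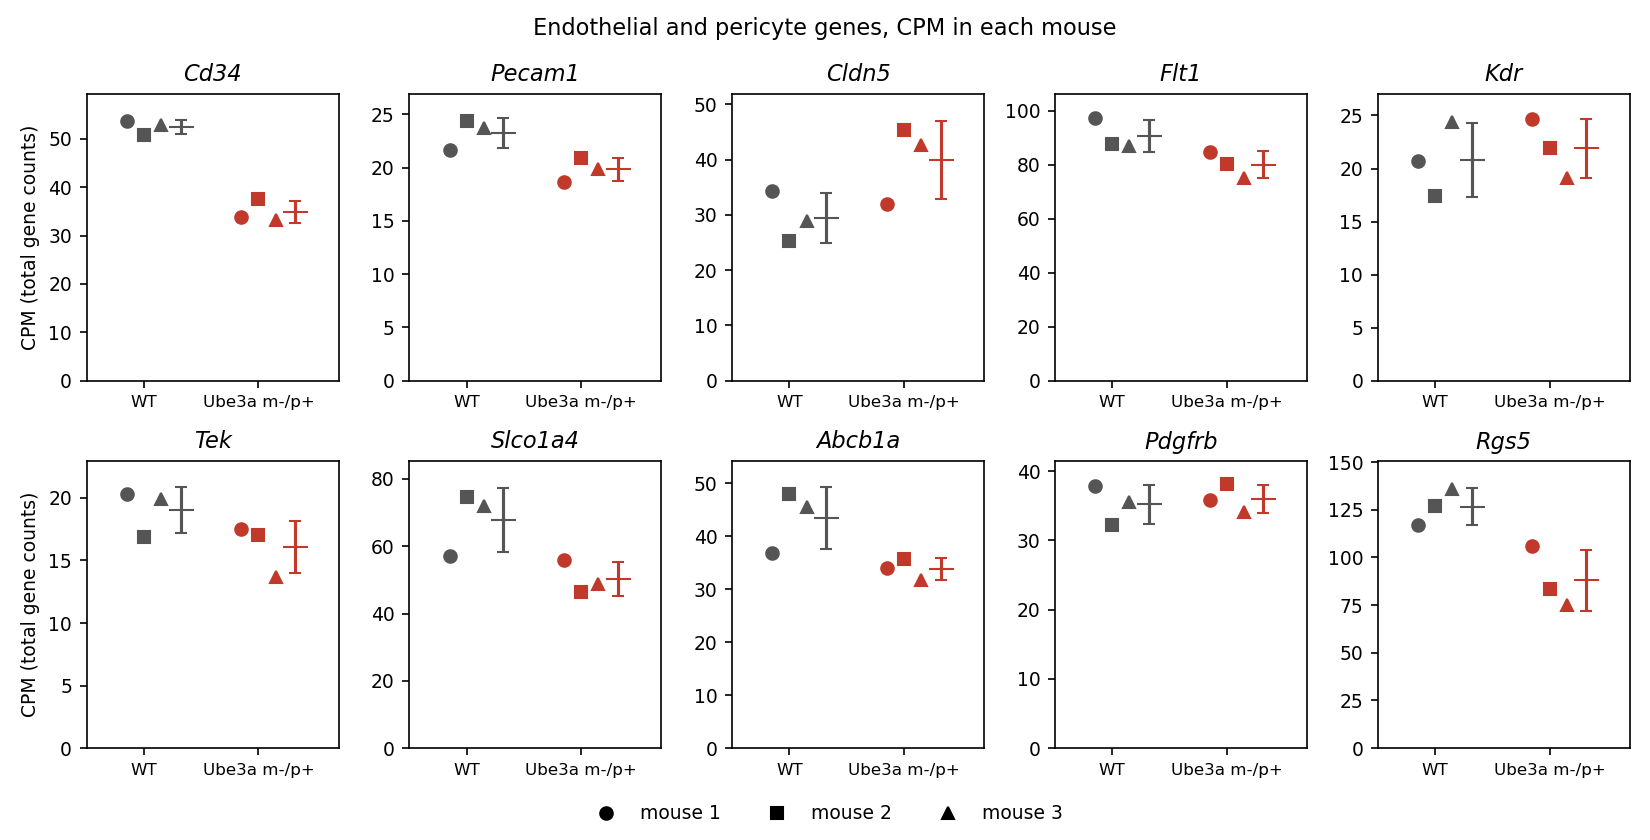
Expression of the 10 vascular genes in CPM on a linear axis from 0, with a point for each mouse and a line at the mean of each genotype. The 3 Ube3a m-/p+ mice lie below the 3 WT mice in *Cd34*, *Pecam1*, *Flt1*, *Slco1a4*, *Abcb1a* and *Rgs5*, and the genotypes overlap in *Cldn5*, *Kdr*, *Tek* and *Pdgfrb*.

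Surface and junction proteins of the endothelium included the lowest and the highest log2 fold change of the set. *Cd34*, which encodes a sialomucin on the luminal surface of endothelial cells and on blood progenitors, lies on chromosome 1 from 194938819 to 194961279 (GRCm38, GENCODE M21, as for all gene positions here). It was measured at 53.6, 50.8 and 52.9 CPM in the WT mice, against 33.8, 37.5 and 33.3 CPM in the Ube3a m-/p+ mice. The genotypes were far apart relative to their spread, with the highest Ube3a m-/p+ value below the lowest WT value. The means were 52.5 ± 1.44 CPM (SD, n = 3) for WT against 34.9 ± 2.29 CPM (SD, n = 3) for Ube3a m-/p+. The log2 fold change was -0.57 (standard error 0.10), and 2.16% of the genes tested had a lower one. The coefficient of variation of *Cd34* among WT mice, 2.75%, was the smallest of the 10 genes, whose range was 2.75% to 16.8%. After the correction for GC content and length the log2 fold change was -0.40 (standard error 0.10). *Cd34* remained called, which held for 0.648% of the 14201 genes in that fit, 0.282% lower and 0.366% higher, and it was the only one of the 10 genes called there.

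An annotated gene of unknown function, *Gm16897*, overlaps exons of *Cd34* by 148 bp on the opposite strand, and is named here after its values were seen. Its values were 16.3, 13.5 and 11.9 CPM in the WT mice, against 8.79, 8.48 and 6.37 CPM in the Ube3a m-/p+ mice. It fell as well, without overlap between the genotypes, at a log2 fold change of -0.81 ± 0.18 (standard error), with adjusted p = 0.0393 (edgeR), and -0.85 after the correction. Reads from the shared 148 bp cannot be assigned to a strand here, and the levels of *Cd34* and *Gm16897* are to that extent uncertain.

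*Pecam1* encodes CD31, an adhesion molecule at contacts between endothelial cells (chromosome 11, 106654217 to 106750628). It was measured at 21.7, 24.4 and 23.7 CPM in the WT mice, against 18.7, 20.9 and 19.9 CPM in the Ube3a m-/p+ mice. All Ube3a m-/p+ values were below the WT values, but only narrowly, and the log2 fold change was -0.21 (standard error 0.12). *Cldn5* encodes claudin-5, the main claudin of the tight junctions of the barrier (chromosome 16, 18776847 to 18778262). Its values were 34.3, 25.2 and 28.8 CPM in the WT mice, against 32.0, 45.3 and 42.6 CPM in the Ube3a m-/p+ mice. Ube3a m-/p+ mice 2 and 3 were above all WT mice, whereas Ube3a m-/p+ mouse 1 was below WT mouse 1. The means were 29.4 ± 4.55 CPM (SD, n = 3) and 40.0 ± 7.03 CPM (SD, n = 3), with a log2 fold change of 0.46 (standard error 0.14). It was not called by edgeR, and 94.0% of the genes tested had a lower log2 fold change. After the correction the value for *Cldn5* was 0.14 (standard error 0.11), and without the mice numbered 1 it was 0.72. *Cldn5* was called higher by DESeq2, and by edgeR without a filter on low counts, without WT mouse 1, without Ube3a m-/p+ mouse 1 or without both.

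The receptors for growth factors had log2 fold changes from -0.23 to 0.09. *Flt1* and *Kdr* lie on chromosome 5 (147561604 to 147726011 and 75932827 to 75978458) and encode VEGF receptors, *Flt1* a receptor that also acts as a decoy and *Kdr* the main signalling receptor. *Flt1* was measured at 97.4, 87.8 and 86.9 CPM in the WT mice, against 84.9, 80.3 and 75.0 CPM in the Ube3a m-/p+ mice. Its values did not overlap, although the gap between the genotypes was small, and the log2 fold change was -0.16 (standard error 0.09). *Kdr* was measured at 20.7, 17.4 and 24.4 CPM in the WT mice, against 24.7, 21.9 and 19.1 CPM in the Ube3a m-/p+ mice. The genotypes overlapped widely in *Kdr*, with a log2 fold change of 0.09 (standard error 0.14). *Tek* encodes TIE2, the receptor of the angiopoietins (chromosome 4, 94739289 to 94874976). Its values were 20.3, 16.9 and 19.9 CPM in the WT mice, against 17.5, 17.0 and 13.7 CPM in the Ube3a m-/p+ mice. WT mouse 2 was within the range of the Ube3a m-/p+ mice, and the log2 fold change was -0.23 (standard error 0.14).

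The ligands of these receptors are given for their role, and were named after their values were seen. *Angpt1*, the activating ligand of TIE2, had 6.71, 10.5 and 6.86 CPM in the WT mice, against 4.96, 3.80 and 3.61 CPM in the Ube3a m-/p+ mice. The genotypes did not overlap, but the gene missed the threshold at this low level (log2 fold change -0.95, standard error 0.24, adjusted p = 0.0503, edgeR). After the correction its log2 fold change was -0.68 (adjusted p = 0.135, edgeR). *Angpt1* was called lower by edgeR with library size only, without a filter on low counts and with at least 10 counts in every library. The same held without WT mouse 1, without Ube3a m-/p+ mouse 1 or without both. *Vegfa*, the ligand of both VEGF receptors, was at 65.9 ± 0.335 CPM (SD, n = 3) for WT against 67.7 ± 3.00 CPM (SD, n = 3) for Ube3a m-/p+, and its log2 fold change was 0.06 (adjusted p = 0.730, edgeR). The adjusted p of *Vegfb*, *Pgf*, *Angpt2* and *Pdgfb* was between 0.196 and 0.639 (edgeR), and none of these ligands was called in this fit. Without both mice numbered 1, *Vegfb*, *Pgf* and *Pdgfb* were called higher, in a fit that called 4138 of 14631 genes. *Pgf* was also called higher without WT mouse 1, where 2582 of 14646 genes were called. After the correction the log2 fold change was -0.15 for *Vegfb*, 0.54 for *Pgf* and -0.00 for *Pdgfb* (adjusted p = 0.465, 0.497 and 0.992, edgeR).

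Both transporters of the barrier were lower in every Ube3a m-/p+ mouse. *Slco1a4* encodes an organic anion transporter of the capillary membrane (chromosome 6, 141805440 to 141856199). It was measured at 57.0, 74.6 and 72.1 CPM in the WT mice, against 56.0, 46.3 and 48.8 CPM in the Ube3a m-/p+ mice. The mice numbered 1 were nearly equal, with 57.0 and 56.0 CPM, and the genotypes were apart in the remaining mice. The means were 67.9 ± 9.51 CPM and 50.4 ± 5.05 CPM (SD, n = 3 each), with a log2 fold change of -0.41 (standard error 0.11). After the correction it was -0.17 (standard error 0.09), and without the mice numbered 1, uncorrected, -0.61. *Abcb1a* encodes P-glycoprotein, the pump that expels many drugs from the endothelium (chromosome 5, 8660077 to 8748575). Its values were 36.8, 48.0 and 45.5 CPM in the WT mice, against 34.0, 35.7 and 31.7 CPM in the Ube3a m-/p+ mice. The lowest WT value, again in mouse 1, was close to the highest Ube3a m-/p+ value, and the log2 fold change was -0.34 (standard error 0.12). By edgeR neither transporter was called, whereas DESeq2 called *Slco1a4* lower, as did edgeR without a filter on low counts, without WT mouse 1, without Ube3a m-/p+ mouse 1 or without both. *Abcb1a* was called without WT mouse 1 and without both mice numbered 1.

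Both transporters belong to families with near-identical copies, so that some reads can match several copies. The copy *Abcb1b* was measured at 4.95, 6.92 and 7.13 CPM in the WT mice, against 4.85, 5.13 and 4.56 CPM in the Ube3a m-/p+ mice, which made up 12.6% of the counts of the pair. The log2 ratio of mean CPM was -0.36 for *Abcb1a* alone and -0.36 for the sum of the pair. *Slco1a5* and *Slco1a6* had 19 counts and 1 count over all libraries, and *Slco1a1* had 0. With *Slco1a5* and *Slco1a6* added, the log2 ratio of mean CPM of *Slco1a4* was -0.43, as it was alone. Adding the counts of the copies thus left these ratios as they were. Reads that aligned to several places are held outside the gene counts. They made up 4.15%, 5.61% and 5.77% of reads in the WT mice, against 4.06%, 3.71% and 3.76% in the Ube3a m-/p+ mice. Reads shared between copies are therefore not in these sums, and their effect was not tested. *Gm42686* is annotated on the opposite strand over 553 bp of the exons of *Abcb1a*.

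The pericyte genes differed from each other. *Pdgfrb* encodes the receptor through which platelet-derived growth factor recruits pericytes (chromosome 18, 61045150 to 61085061). It was measured at 37.9, 32.2 and 35.5 CPM in the WT mice, against 35.8, 38.1 and 34.1 CPM in the Ube3a m-/p+ mice. The genotypes overlapped, with means of 35.2 ± 2.90 CPM and 36.0 ± 1.99 CPM (SD, n = 3 each) and a log2 fold change of 0.05 (standard error 0.11). *Rgs5* encodes a regulator of G-protein signalling that is abundant in brain pericytes (chromosome 1, 169655501 to 169695813). Its values were 117, 127 and 136 CPM in the WT mice, against 106, 83.2 and 74.8 CPM in the Ube3a m-/p+ mice. All Ube3a m-/p+ mice were below the WT mice, mouse 1 by the smallest margin. The means were 127 ± 9.92 CPM and 87.9 ± 16.0 CPM (SD, n = 3 each), with a log2 fold change of -0.51 (standard error 0.11). After the correction the log2 fold change of *Rgs5* was -0.29 (standard error 0.08), and the gene was no longer called.

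**Figure D2:**
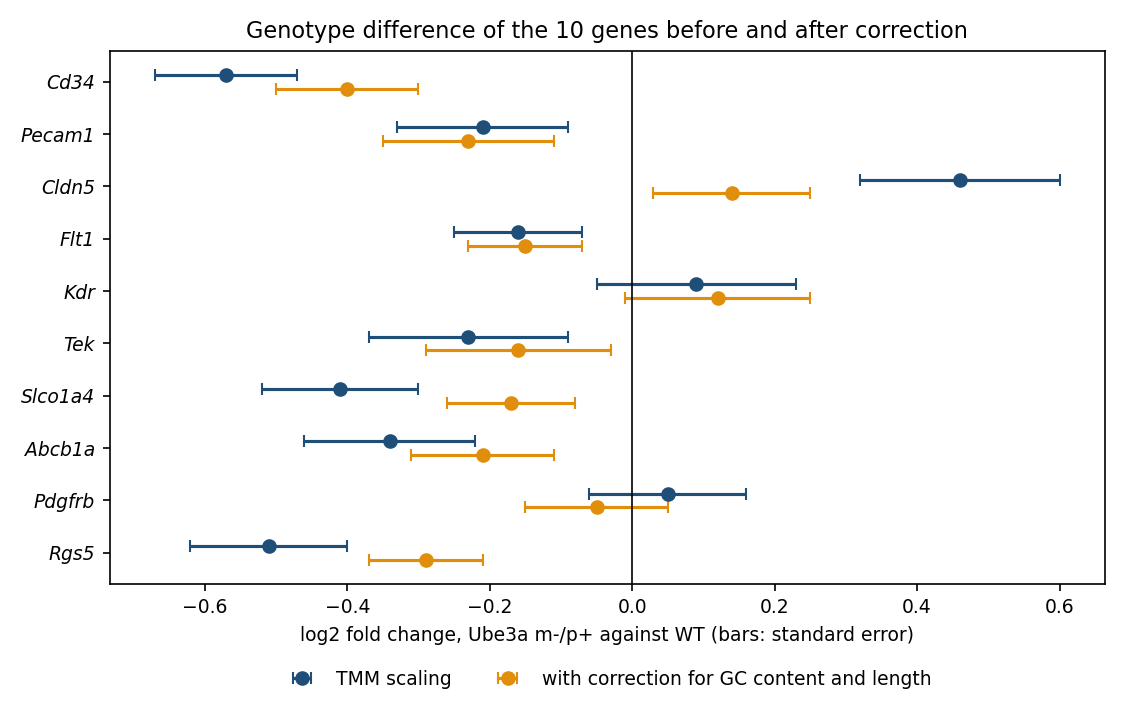
Log2 fold change of the 10 genes in Ube3a m-/p+ against WT mice (edgeR), without and with the correction of the libraries for GC content and length, with bars for the standard error. *Cd34* has the lowest value in both fits, -0.57 and -0.40, and the range narrows from -0.57 to 0.46 before to -0.40 to 0.14 after the correction.

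The order of levels was compared per length, as CPM per kilobase of the longest annotated transcript. In WT mice *Rgs5* had the highest mean level, 30.9 CPM per kb, followed by *Cldn5* with 20.8, *Slco1a4* with 17.8, *Cd34* with 17.1 and *Flt1* with 13.2 CPM per kb. *Abcb1a* (8.69 CPM per kb), *Pecam1* (6.76), *Pdgfrb* (6.49), *Tek* (4.09) and *Kdr* (3.52) followed, so that *Rgs5* was 8.79-fold above *Kdr*. The values of the 3 WT mice overlapped between *Cldn5* and *Slco1a4*, *Slco1a4* and *Cd34*, *Pecam1* and *Pdgfrb*, and *Tek* and *Kdr*. Other neighbours in this order were separate. In Ube3a m-/p+ mice *Cldn5* came first, with a mean of 28.2 CPM per kb against 21.5 for *Rgs5*. This exchange was seen in mice 2 and 3, with 32.0 against 20.3 and 30.1 against 18.3 CPM per kb, but not in mouse 1, with 22.6 against 25.8 CPM per kb. The levels per kb are not corrected for GC content, which was 60.5% for *Cldn5* and 41.1% for *Rgs5*. *Cd34* was above *Flt1* in every WT mouse, by 17.5 against 14.1 CPM per kb in mouse 1, 16.6 against 12.7 in mouse 2 and 17.3 against 12.6 in mouse 3. In Ube3a m-/p+ mice the levels of *Cd34* and *Flt1* were close, with means of 11.4 and 11.6 CPM per kb.

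*Cd34* was also set against the other 7 endothelial genes of the same library, which share its dissection and depth. The log2 CPM of *Cd34* was above the mean log2 CPM of these 7 genes by 0.62, 0.56 and 0.52 in WT mice 1, 2 and 3. In Ube3a m-/p+ mice 1, 2 and 3 it was above by 0.04, 0.16 and 0.12, a difference of -0.46 between the genotype means. The gap was thus smaller in every Ube3a m-/p+ mouse, the mice numbered 1 included. This is a description only, since *Cd34* was chosen as being among the clearest falls of this same contrast. The values are not corrected for GC content. The 7 genes include *Cldn5*, whose log2 fold change was 0.46 before and 0.14 after the correction. For *Cldn5* the same quantity was -0.12, -0.59 and -0.49 in the WT mice, against -0.05, 0.48 and 0.52 in the Ube3a m-/p+ mice. *Rgs5*, set against all 8 endothelial genes, was above them by 1.66, 1.82 and 1.82 in WT mice and by 1.68, 1.29 and 1.27 in Ube3a m-/p+ mice 1, 2 and 3. In the mice numbered 1, *Cldn5* and *Rgs5* thus differed little relative to the endothelial mean, while the gap of *Cd34* was smaller in Ube3a m-/p+ mouse 1 than in WT mouse 1.

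Between the 10 genes, the log2 fold change followed the GC content of the longest transcript. GC content was lowest for *Slco1a4* (40.3%), *Rgs5* (41.1%) and *Cd34* (42.8%), which had the lowest log2 fold changes, and highest for *Cldn5* (60.5%), which had the highest. The 10 genes share the same libraries, so the relation is a description, with a Spearman's rho of 0.88 and a Pearson's r of 0.93. Over all tested genes with a transcript rho was 0.62, and the median log2 fold change passed from -0.20 at a GC content of 40% to 45% to 0.29 at 60% and above. After the correction rho was 0.02 over all genes and 0.71 over the 10 genes, with 8 of the 10 values negative and a median of -0.16. In the corrected fit 52.5% of all genes were negative, with a median of -0.010. Among genes of 40% to 45% GC content, the median of -0.20 compares with -0.57 for *Cd34*, -0.51 for *Rgs5* and -0.41 for *Slco1a4*. The GC gradient of most libraries ran in opposite directions in the genotypes. The correction therefore also removes any difference between the genotypes that follows GC content or length, whether from the tissue or from the libraries. These cannot be told apart in this design, and what part of the differences comes from the GC content of the libraries was not tested.

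**Figure D3:**
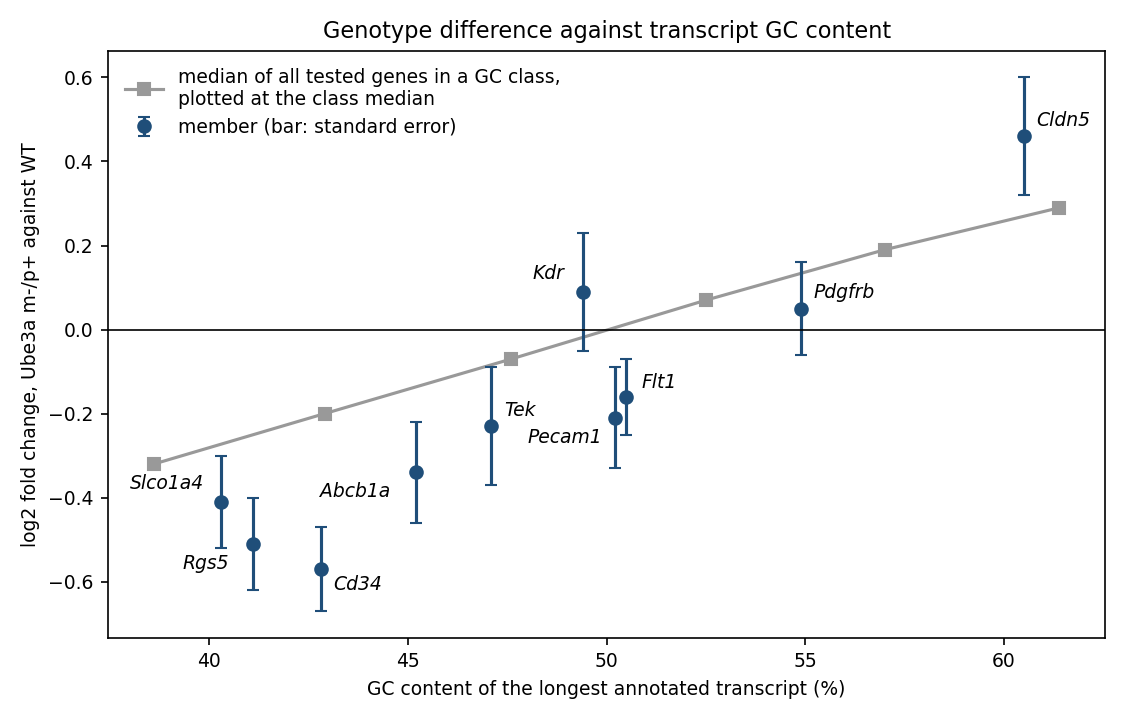
Log2 fold change of each of the 10 genes (points, bars for the standard error) against the GC content of its longest transcript in percent, with the median log2 fold change of all tested genes per GC class (squares). The medians pass from -0.32 below 40% to 0.29 at 60% and above, and *Cd34* at 42.8% lies at -0.57, below the median of its class at -0.20.

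Other genes of the vasculature were grouped in 4 lists by their role, none of which contains the 10 genes. Of 123 genes listed 117 were tested, and 1 (0.855%) was called, against 2.01% of all genes. Their median log2 fold change was -0.04, and the genotypes did not overlap in 25 of them (21.4%), against 25.0% of all genes. As a whole the wider set thus stayed near the values of all genes.

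In the list of endothelial identity, 32 of 34 genes were tested, 1 was called lower and 0 higher (edgeR). The called gene was *Ptprb*, which encodes a phosphatase that acts on TIE2 and VE-cadherin. Its values were 53.6, 53.4 and 45.7 CPM in the WT mice, against 36.6, 40.2 and 30.6 CPM in the Ube3a m-/p+ mice. *Ptprb* fell without overlap between the genotypes (log2 fold change -0.49, standard error 0.12, adjusted p = 0.0427, edgeR), and after the correction its log2 fold change was -0.40 (adjusted p = 0.0532, edgeR). The call of *Ptprb* was lost when WT mouse 2, WT mouse 3, Ube3a m-/p+ mouse 2 or Ube3a m-/p+ mouse 3 was left out. *Ackr1*, a chemokine-binding receptor of venules, was at 59.8 ± 4.33 CPM in the WT group against 48.5 ± 1.82 CPM in Ube3a m-/p+ mice (SD, n = 3 each), and its log2 fold change was -0.28 (adjusted p = 0.0901, edgeR). After the correction it was called lower (log2 fold change -0.42, adjusted p = 0.0237, edgeR), as it was, uncorrected, without WT mouse 1 or both mice numbered 1. *Podxl*, a sialomucin related to CD34, was at 44.8 ± 1.15 CPM in the WT group against 41.9 ± 4.29 CPM in Ube3a m-/p+ mice (SD, n = 3 each), and its log2 fold change was -0.08 (adjusted p = 0.675, edgeR). At an unadjusted p below 0.05, 6 genes of this list were lower and 1 higher, and the median log2 fold change was -0.06.

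In the list of barrier transport and junctions, 0 of 23 genes were called by edgeR and 0 by DESeq2, and at an unadjusted p below 0.05 edgeR had 3 lower and 2 higher. The median was -0.09. The most abundant genes were *Tfrc*, the transferrin receptor (log2 fold change -0.24, adjusted p = 0.114, edgeR), *Tjp1*, the scaffold of tight junctions (-0.24, adjusted p = 0.152, edgeR), and *Slc3a2*, the heavy chain of amino acid transporters (0.25, adjusted p = 0.161, edgeR). After the correction the log2 fold change was 0.03 for *Tfrc*, -0.13 for *Tjp1* (adjusted p = 0.407, edgeR) and 0.14 for *Slc3a2*. *Tjp1* and *Cldn5*, both of the tight junction, had log2 fold changes of opposite sign before and after the correction. Neither gene was called by edgeR in these fits.

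In the list of vessel growth signalling, 0 of 34 genes tested were called by edgeR, with 5 lower and 5 higher at an unadjusted p below 0.05, and 2 (*Nrp1* and *Jag2*) were called by DESeq2. The most abundant genes were *S1pr1*, a receptor for sphingosine 1-phosphate (log2 fold change -0.26, adjusted p = 0.110, edgeR), *Nrp1*, a coreceptor of VEGF (-0.33, adjusted p = 0.0531, edgeR), and its relative *Nrp2* (0.04, adjusted p = 0.844, edgeR). After the correction the log2 fold change was -0.24 for *S1pr1*, -0.13 for *Nrp1* (adjusted p = 0.415, edgeR) and 0.04 for *Nrp2*. The median of the list was 0.05, and -0.03 after the correction. In the list of mural cells and basement membrane, 0 of 28 genes tested were called by edgeR, with 1 lower and 4 higher at an unadjusted p below 0.05, and 1 (*Col4a2*) was called by DESeq2. The collagens of the basement membrane *Col4a2* and *Col4a1* had log2 fold changes of 0.36 (adjusted p = 0.0688, edgeR) and 0.20 (adjusted p = 0.189, edgeR). After the correction they were at 0.15 (adjusted p = 0.413, edgeR) and 0.04 (adjusted p = 0.853, edgeR). *Vtn*, a pericyte gene encoding vitronectin, was at 0.16 (adjusted p = 0.392, edgeR), and at -0.03 after the correction. The median of the list was 0.08, and -0.08 after the correction, so that its sign depended on the correction.

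**Figure D4:**
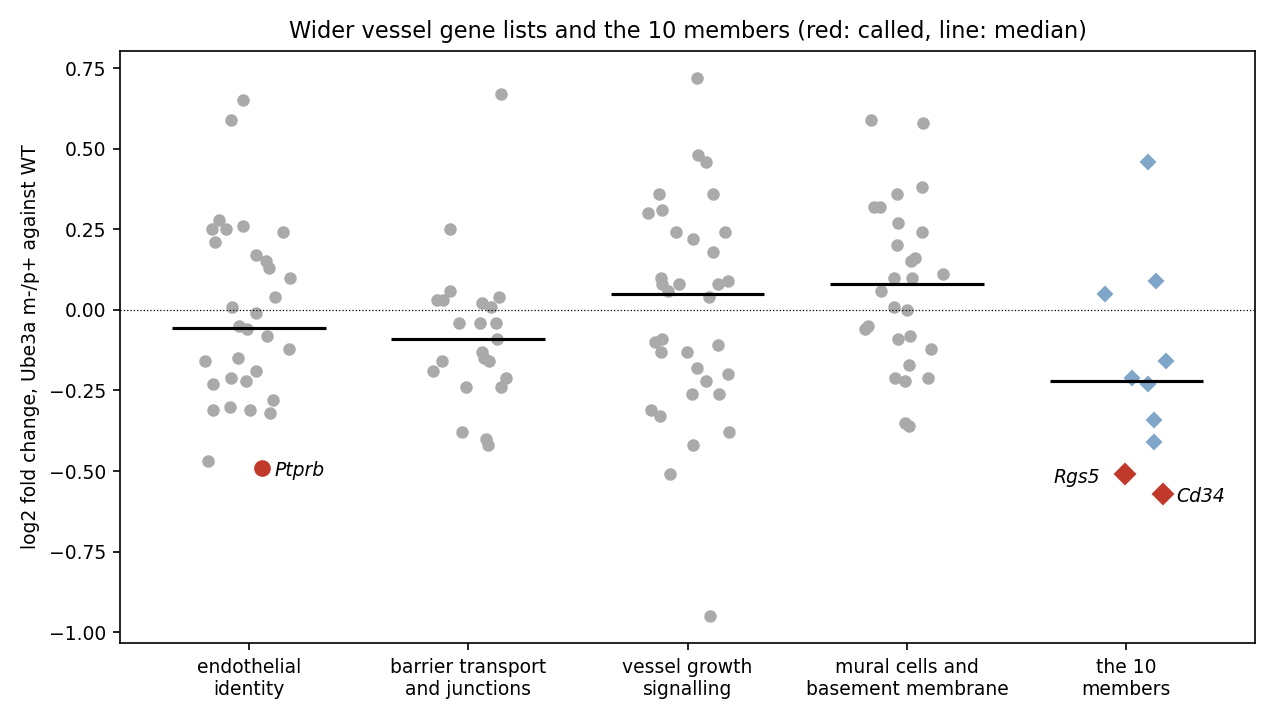
Log2 fold change of each tested gene of the 4 wider vascular lists (circles) and of the 10 genes (diamonds) in Ube3a m-/p+ against WT mice (edgeR), with a line at the median and called genes in red. Medians of the lists lie between -0.09 and 0.08, the median of the 10 genes at -0.22, and the called genes are *Ptprb*, *Cd34* and *Rgs5*.

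Markers of other cell types in the tissue were measured beside the vascular genes. The summed level of the endothelial identity list was 555 to 572 CPM in the WT group against 475 to 554 CPM in Ube3a m-/p+ mice, and that of the mural list 592 to 665 and 632 to 714 CPM. As markers of the labelled tissue, 6 genes of hippocampal excitatory neurons, led by *Neurod2* and *Wfs1*, summed to 727 to 779 CPM in the WT group against 629 to 711 CPM in Ube3a m-/p+ mice. Their median log2 fold change was -0.36, and -0.13 after the correction. Fibroblasts of the meninges, which enclose larger vessels, had 10 of 11 markers tested, and 9 of these had a positive log2 fold change, with *Igf2* and *Col1a2* the most abundant. The sum was 97.2 to 158 CPM in the WT group against 102 to 189 CPM in Ube3a m-/p+ mice, and 1 gene was called, *Col1a1* (log2 fold change 0.73, adjusted p = 0.0416, edgeR). After the correction *Col1a1* was no longer called (0.55, adjusted p = 0.0750, edgeR). Blood was near the lower limit, with a sum of 9.54 to 14.1 CPM in the WT group against 7.41 to 10.4 CPM in Ube3a m-/p+ mice. Of its 10 markers *Alas2* and *Ptprc* had enough counts to be tested, and the 4 haemoglobin genes were listed at 0 in all libraries. These are pairs of near-identical copies, so their 0 does not measure the absence of blood.

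The choroid plexus, a vascular tissue at the border of the hippocampus, varied most between mice. Its 8 markers, led by *Ttr* and *Kl*, summed to 616, 103 and 2215 CPM in the WT mice, against 2301, 1631 and 109 CPM in the Ube3a m-/p+ mice. Astrocytes, whose end feet cover the capillaries, had sums of 4978 to 5374 CPM in the WT group against 4467 to 4675 CPM in Ube3a m-/p+ mice, with a median log2 fold change of -0.13, and -0.05 after the correction. *Slc1a2* and *Aldoc* led this list, with log2 fold changes of -0.32 and 0.21. *Slc1a2* alone had means of 3292 CPM in the WT group and 2600 CPM in Ube3a m-/p+ mice, and so weighs heavily in the sums. Of the 7 astrocyte genes, 4 had a negative and 3 a positive log2 fold change. The list of neurons, led by *Snap25* and *Slc17a7*, summed to 5501 to 5542 CPM in the WT group against 5285 to 5646 CPM in Ube3a m-/p+ mice. The part of these cell types in the values of the 10 genes was not tested.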

How the data were processed

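RNA of hippocampus from 3 WT and 3 Ube3a m-/p+ mice was sequenced, 1 library per mouse. The authors deposited counts of reads per gene symbol, neither normalized nor pooled. The submitters' processing notes name STAR 2.7.4a, HTSeq and the build mm10. The annotation and the strand setting are not given in the sources used here. Coordinates and transcripts are those of GENCODE M21 (GRCm38, the build also called mm10).

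Counts were analysed in R 4.3.3 with edgeR 4.0.16. Genes were kept by filterByExpr, scaled by TMM and tested by the quasi-likelihood F test with robust dispersion, with a single term for genotype, and two-sided p-values were adjusted over 14445 genes (Benjamini-Hochberg). TMM factors were 0.986 to 1.01, and the biological coefficient of variation was 0.102. A call needed both an adjusted p under 0.05 and a fold change over 1.2, the fold threshold used in the study. CPM were scaled on total gene counts, without TMM. Every pair of libraries differed by more than counting noise (chi-square per degree of freedom 3.78 or higher). The lowest value was that of WT mouse 1 and Ube3a m-/p+ mouse 1, which was nearer to WT mouse 1 than to the other Ube3a m-/p+ mice (5.42 and 10.1). The labels number the replicates and name nothing else, so p-values measure only the spread between these mice. The correction fitted natural splines with 5 degrees of freedom on GC content and transcript length in each library, and the fits entered edgeR as offsets for 14201 tested genes (98.3%).

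The alternatives were DESeq2 1.42.0, library size and upper-quartile scaling, no filter, at least 10 counts in every library, an unadjusted p, the correction, the replicate number as a block, both together, each mouse left out, and, chosen after seeing the data, both mice numbered 1 left out. The steps were tested on simulated data. The genes and lists were chosen with earlier results of these data known. Named genes were the 10 genes, *Ube3a*, their near copies, called genes of each list and, up to 3 in all, the most abundant ones, and for cell type lists the 2 most abundant and any called. The marker lists of microglia and macrophages and of the oligodendrocyte lineage are not reported here, nor are some results that this rule would name. Other genes were named after their values were seen, as stated. Lists were described by counts and medians.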

Additional observations from a re-analysis of the deposited data

How the results depend on the processing

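The directions of *Cd34*, *Pecam1*, *Flt1*, *Tek*, *Slco1a4*, *Abcb1a* and *Rgs5* (negative) and of *Cldn5* (positive) held in every setting tried, with *Cd34* between -0.62 and -0.40 and *Rgs5* between -0.72 and -0.29. The sign of *Kdr* (-0.02 to 0.21) and of *Pdgfrb* (-0.05 to 0.11) did not. Leaving out single mice, the median of the 10 genes was -0.25 to -0.18, and 7 to 9 were negative. The calls were far less stable. All genes called numbered 290 by edgeR with TMM, 967 by DESeq2, 1176 without a filter, 92 after the GC and length correction, 2832 at an unadjusted p and 4138 without both mice numbered 1. With each mouse left out they numbered 0 to 2582, with 0 without WT mouse 2, WT mouse 3 or Ube3a m-/p+ mouse 2 (edgeR, where 2075, 2159 and 2128 genes had an unadjusted p below 0.05), 2 without Ube3a m-/p+ mouse 3, 1816 without Ube3a m-/p+ mouse 1 and 2582 without WT mouse 1. Of the 10 genes, 4 (*Cd34*, *Rgs5*, *Cldn5* and *Slco1a4*) were called by DESeq2 or without a filter, 5 at an unadjusted p or without WT mouse 1 or both mice numbered 1, 4 without Ube3a m-/p+ mouse 1, and 0 without any other mouse (4 to 5 at an unadjusted p). Leaving out a mouse changes the number of samples and the mean GC gradient of its genotype together, and the cause was not tested.

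The labels do not say whether mice of the same number were paired. The deviations of same-numbered mice from their group means correlated at -0.285, -0.177 and -0.311. These deviations also carry the GC gradient of the libraries, which ran in opposite directions in mice 2 and 3 of the genotypes. The correlations therefore cannot show whether the numbers mark pairs. Under the replicate block, edgeR called 0 genes (2422 at an unadjusted p below 0.05), and 13 with the block and the correction together. Of the 10 genes and of endothelial identity 0 were called under either (5 and 2 of the 10 genes at an unadjusted p below 0.05, edgeR).

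Of all genes, 2832 of 14445 were called at an unadjusted p and 4138 of 14631 without both mice numbered 1. With each mouse left out 0 to 2582 genes were called, by DESeq2 967 and without a filter 1176. The lists below had 32, 23, 34 and 28 genes tested with all mice and the filter. Their calls increased in settings that also called more of all genes, and the lists were not tested against all genes there. Endothelial identity had 7 calls at an unadjusted p, 7 without both mice numbered 1, and 0 to 5 with each mouse left out. Barrier transport and junctions had 2, 6 and 0 to 4, and 1 without a filter. Vessel growth signalling had 8, 12 and 0 to 8, 2 by DESeq2, 1 with library size only, 3 without a filter and 2 with at least 10 counts in every library. Mural cells and basement membrane had 4, 5 and 0 to 1, and 1 by DESeq2 or without a filter. Bulk counts cannot locate a difference in a cell type.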
